A study of Mus musculus with 32 samples.

Results

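The transcriptome of untreated mouse kidney was compared with that of untreated mouse lung by RNA-seq of polyadenylated RNA. The comparison uses the 4 libraries labelled as kidney control and lung control, 2 for each organ, out of 16 RNA-seq libraries and 32 samples in the series, and it describes 18445 genes with enough reads to test out of 25059 listed. All animals were female C57BL/6J mice aged 6 to 7 months. The control mice received an intraperitoneal injection of saline at ZT1, in the same volume as the drug given to the treated animals, and were killed at ZT5, so they were untreated only in the sense of having received no cisplatin. The libraries are of whole organs. Liver and spleen controls entered the fit as well, and took part in its read filter and scaling. The lung and spleen pairs were each summed to 1 sample, so the spread was estimated from the kidney and liver pairs. The kidney and lung libraries of mice given 10 mg/kg cisplatin served as a separate set of libraries for the same organ comparison. Cisplatin is a platinum drug that crosslinks neighbouring bases of DNA. Where a lower level is reported in such bulk samples, fewer cells of a type and less RNA per cell cannot be told apart.

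The kidney filters blood in the glomerulus and then recovers nearly all of the filtrate along the nephron, a tube whose segments (proximal tubule, loop of Henle, distal convoluted tubule, collecting duct) each carry their own set of transporters. The proximal tubule holds most of the mass of the cortex, burns fatty acids, makes glucose and takes up organic ions, cisplatin among them. The lung is a surface for gas exchange: flat alveolar type 1 cells face a dense capillary bed, type 2 cells secrete surfactant, and the airways are lined with secretory club cells and with ciliated cells.

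Reads on genes numbered 19319092 and 55043177 in kidney control 1 and 2, and 27662355 and 77013005 in lung control 1 and 2. The 2 lung libraries were nearly as close as repeated draws of reads would be, with a chi-square dispersion index of 2.75 against 83.7 for the 2 kidney libraries, and were therefore summed and counted as 1 sample, although the study describes its replicates as biological. The kidney libraries differed from each other in lymphoid and fat genes. The summed level of 11 B cell markers was 38.0 RPKM (RPKM is the read count scaled to exon length and to the TMM-scaled library size) in kidney control 1 and 175 RPKM in kidney control 2, and that of 6 adipocyte markers was 40.3 and 156 RPKM. The part of this in the results below was not tested. Most RPKM values below are given for every library, but some named genes have only a mean or no level.

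Of the 18445 genes tested, 2477 (13.4%) were higher in kidney and 3153 (17.1%) were higher in lung, 30.5% in either direction (edgeR quasi-likelihood test against a log2 difference of 0.4, Benjamini-Hochberg adjusted p under 0.05). The libraries of the organs did not overlap for 80.0% of all genes tested, so that separation of the libraries alone says little about any 1 gene. Called differences were large. A total of 966 kidney genes and 1283 lung genes differed by at least 10-fold, and 416 and 360 by at least 100-fold. The genes higher in kidney took 44.3% and 45.4% of the reads of the kidney libraries but 7.74% and 7.70% of those of the lung libraries, and the genes higher in lung took 33.4% of the reads of both lung libraries but 3.44% and 3.88% of those of the kidney libraries. In total, 470 genes with at least a 4-fold higher estimate in kidney and 1119 with at least a 4-fold higher estimate in lung were not called. The count of calls depended on which kidney library was left out. All calls were lost without kidney control 1, and part of them without kidney control 2. In both fits the liver pair was the only source of the spread, and the cause of the unequal loss was not tested. The sign was kept by 5628 of the 5630 called genes without kidney control 1 and by 5599 without kidney control 2. Scaling by library size alone shifted the median of all genes by -0.32 on the log2 scale and the share of calls higher in kidney from 44.0% to 32.9%.

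**Figure D1:**
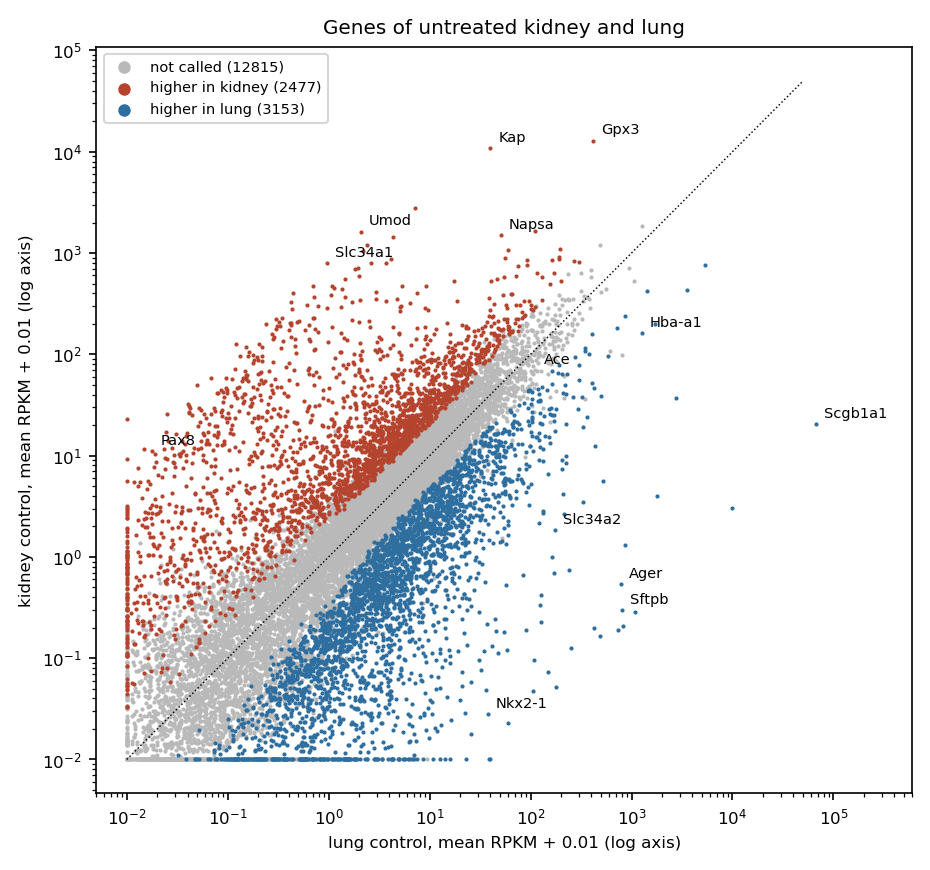
Mean RPKM of the 2 kidney control libraries (vertical) against the 2 lung control libraries (horizontal), both with 0.01 added and on log axes, 1 point per tested gene; the dotted line marks equal levels. The 2477 genes higher in kidney (red) and 3153 higher in lung (blue) lie on either side of the 12815 genes not called (grey), with Kap and Gpx3 at the top of the kidney side and Scgb1a1 at the far end of the lung side.

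The genes counted include 0 mitochondrially encoded genes. Among those counted, the most abundant kidney transcripts were secreted or metabolic products of the tubule. Gpx3, which encodes the glutathione peroxidase secreted by the kidney into plasma, was at 10854 and 14955 RPKM in kidney and 422 and 404 RPKM in lung. Kap, a kidney androgen-regulated protein of the proximal tubule, was at 12999 and 8755 RPKM in kidney and 39.7 and 40.0 RPKM in lung. Both genes separated the organs in every library, and Gpx3 took the largest share of any gene counted in both kidney libraries (2.30% and 2.90% of reads). Their log2 differences were 4.98 ± 0.79 (SE, adjusted p = 0.00246) and 8.09 ± 1.37 (adjusted p = 0.00326).

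Every marker of the proximal tubule and of the loop of Henle was higher in kidney, 18 of 18 and 8 of 8, against 13.4% of all genes tested. The median log2 difference was 8.84 for the proximal tubule and 9.22 for the loop, with 0 over all genes tested. Slc34a1, the phosphate transporter of the proximal brush border (chr13), was at 626 and 952 RPKM in kidney and 1.08 and 0.81 RPKM in lung. Slc5a2, the low-affinity glucose transporter SGLT2, was at 121 and 129 RPKM in kidney and 0.0879 and 0.136 RPKM in lung. Umod, which encodes the urinary protein uromodulin of the thick ascending limb, was at 1478 and 1771 RPKM in kidney and 2.22 and 1.90 RPKM in lung. The kidney and lung libraries did not come near each other for any of the 3 genes, whose log2 differences were 9.80 ± 1.08, 9.98 ± 0.86 and 9.67 ± 1.07 (adjusted p = 0.000429, 0.000167 and 0.000445). Slc12a1, the sodium-potassium-chloride cotransporter inhibited by loop diuretics, was at 395 and 417 RPKM in kidney and 0.442 and 0.428 RPKM in lung.

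In the later nephron 5 of 7 distal convoluted tubule markers and 8 of 12 collecting duct markers were higher in kidney, against 13.4% of all genes. From either list 0 were higher in lung. Slc12a3, the thiazide-sensitive cotransporter, was at 116 and 120 RPKM in kidney and 0.140 and 0.143 RPKM in lung (log2 difference 9.69 ± 0.86, adjusted p = 0.000194). The collecting duct members not called were Avpr2, Atp6v0d2, Scnn1b and Scnn1g. The last 2 encode subunits of the epithelial sodium channel, which takes up sodium in the collecting duct and clears fluid from airspaces, and had higher estimates in lung: Scnn1g was at 17.2 and 26.9 RPKM in kidney and 42.6 and 43.5 RPKM in lung (log2 difference -0.98 ± 0.32, adjusted p = 0.0901), and Scnn1b at 15.2 and 25.8 against 29.5 and 30.1 RPKM (adjusted p = 0.488).

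Podocyte markers did not separate the organs as a list. Of 8, 4 were higher in kidney, 1 was higher in lung and 3 were not called, and without kidney control 2 the first count was 2. The member higher in lung was Clic5, a chloride channel-like protein at the cell cortex, at 14.6 and 16.5 RPKM in kidney and 101 and 103 RPKM in lung (log2 difference -2.73 ± 0.36, adjusted p = 0.00121). Podxl, a sialomucin of podocytes and of endothelium, was at 39.6 and 73.7 RPKM in kidney and 75.2 and 72.7 RPKM in lung, and was not called (adjusted p = 0.629).

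The lung epithelium was as distinct. All 8 alveolar type 1 markers, all 9 club and secretory markers and 10 of 11 ciliated markers were higher in lung, against 17.1% of all genes tested, with median log2 differences of -8.65, -11.7 and -6.78. Scgb1a1, the secretoglobin of club cells, was at 66246 and 67357 RPKM in lung and 17.1 and 23.9 RPKM in kidney (log2 difference -11.7 ± 0.76, adjusted p = 6.83e-05). It took 4.48% and 4.55% of the reads of the lung libraries, more than any other gene counted. Ager, a receptor carried by type 1 cells, was at 798 and 767 RPKM in lung and 0.620 and 0.428 RPKM in kidney. Foxj1, the master regulator of motile cilia, was at 37.9 and 35.4 RPKM in lung and 0.169 and 0.246 RPKM in kidney (log2 difference -7.39 ± 0.50, adjusted p = 7.81e-05).

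Surfactant genes of the type 2 cell followed the same direction, with 9 of 11 markers of the list higher in lung and Napsa as the exception. Sftpc, the hydrophobic surfactant protein C, was at 9975 and 9748 RPKM in lung and 2.31 and 3.74 RPKM in kidney. Sftpb was at 824 and 779 RPKM in lung and 0.225 and 0.354 RPKM in kidney. Both were higher in lung by log2 differences above 11 in size (-11.7 ± 0.68 and -11.4 ± 0.46, adjusted p = 6.67e-05 and 4.86e-05). Napsa, the aspartic protease napsin A that processes surfactant protein B and is also made by the proximal tubule, was at 1316 and 1670 RPKM in kidney and only 50.9 and 50.2 RPKM in lung, a log2 difference of 4.89 ± 0.59 in favour of kidney (adjusted p = 0.000676). Abca3, the lipid transporter of lamellar bodies, was at 28.0 and 57.7 RPKM in kidney and 18.2 and 17.7 RPKM in lung and was not called (adjusted p = 0.114).

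**Figure D2:**
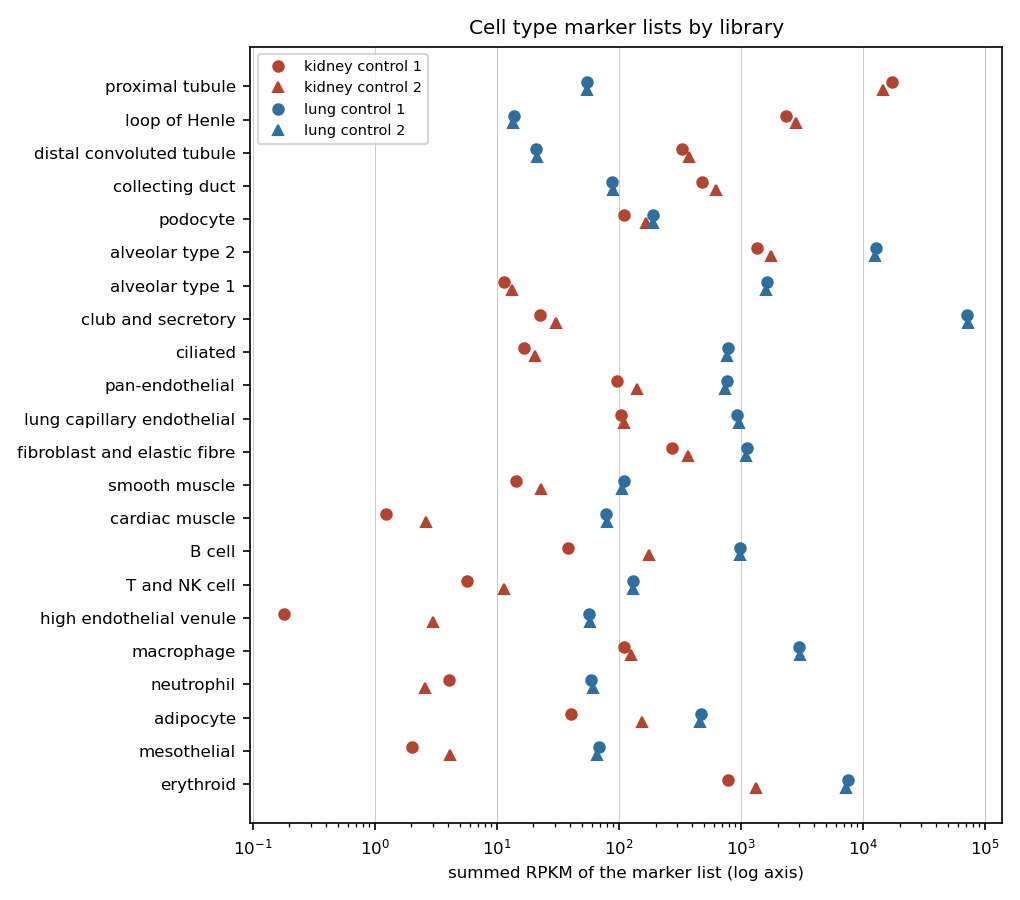
Summed RPKM (log axis) of each cell type marker list in kidney control 1 and 2 (red) and lung control 1 and 2 (blue); circles are library 1 and triangles library 2. The proximal tubule list reads 17406 and 14606 in kidney and 55.1 and 54.8 in lung, the club cell list reads 22.8 and 30.6 in kidney and 71369 and 72418 in lung, and the podocyte list reads 110 and 167 in kidney and 191 and 189 in lung.

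Paralogous pairs divided the same task between the organs. Slc34a1 is the phosphate transporter of the proximal tubule and Slc34a2 that of type 2 cells. Slc34a2 was at 172 and 174 RPKM in lung and 2.06 and 1.61 RPKM in kidney (log2 difference -6.57 ± 0.42, adjusted p = 6.83e-05), the reverse of Slc34a1. Among water channels, Aqp2, the vasopressin-regulated channel of the collecting duct, was at 180 and 204 RPKM in kidney and 0.251 and 0.342 RPKM in lung (log2 difference 9.23 ± 0.47), and Aqp5, the channel of type 1 cells, was at 0.102 and 0.261 against 92.2 and 88.5 RPKM (log2 difference -8.79 ± 0.59). Aqp1, which lines both the proximal tubule and capillaries, was shared, at 362 and 474 RPKM in kidney and 316 and 312 RPKM in lung (log2 difference 0.41 ± 0.41, adjusted p = 0.604). Among claudins, the proteins that set the permeability of tight junctions, Cldn2 of the leaky proximal tubule was at 163 and 210 RPKM in kidney and 1.13 and 1.02 RPKM in lung, and Cldn18 of the alveolus had a mean of 0.0637 RPKM in kidney and 150.2 RPKM in lung. Over the families, 7 of 10 aquaporins and 9 of 20 claudins were higher in kidney, and 1 and 4 were higher in lung. For solute carriers 160 of 355 were higher in kidney and 46 were higher in lung. The shares over all genes tested were 13.4% higher in kidney and 17.1% higher in lung. The claudin and solute carrier counts higher in lung were near that share.

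The promoters of 4 of these genes are shown because they are marker genes of the nephron and of the type 2 cell and include the pair of phosphate transporters. Each runs 5′ to 3′ along the gene's strand from 250 bases before to 50 bases after the RefSeq start (GRCm38.p6), in lower case, with capitals at the letters of 4 motifs searched on both strands: CAAAGT (letters bound by HNF4 factors), CTCAAG (the core of NKX2-1 sites), TGTTTAC (forkhead factors) and the letters GTTAAT. The windows are chr13:55399398-55399697 on the plus strand for Slc34a1, chr5:53049103-53049402 on the plus strand for Slc34a2, chr7:119479213-119479512 on the minus strand for Umod and chr6:72304360-72304659 on the plus strand for Sftpb.
Slc34a1: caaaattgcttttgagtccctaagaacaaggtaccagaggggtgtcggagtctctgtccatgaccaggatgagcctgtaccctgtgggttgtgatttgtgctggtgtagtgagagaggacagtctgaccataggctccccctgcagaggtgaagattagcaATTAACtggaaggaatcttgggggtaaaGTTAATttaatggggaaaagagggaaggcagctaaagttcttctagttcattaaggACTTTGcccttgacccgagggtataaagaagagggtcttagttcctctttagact
Slc34a2: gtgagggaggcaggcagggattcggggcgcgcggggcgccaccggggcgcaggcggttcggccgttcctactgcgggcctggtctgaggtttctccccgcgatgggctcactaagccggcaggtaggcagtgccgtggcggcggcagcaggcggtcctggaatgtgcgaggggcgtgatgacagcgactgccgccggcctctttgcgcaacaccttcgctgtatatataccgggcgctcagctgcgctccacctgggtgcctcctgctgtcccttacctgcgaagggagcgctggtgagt
Umod: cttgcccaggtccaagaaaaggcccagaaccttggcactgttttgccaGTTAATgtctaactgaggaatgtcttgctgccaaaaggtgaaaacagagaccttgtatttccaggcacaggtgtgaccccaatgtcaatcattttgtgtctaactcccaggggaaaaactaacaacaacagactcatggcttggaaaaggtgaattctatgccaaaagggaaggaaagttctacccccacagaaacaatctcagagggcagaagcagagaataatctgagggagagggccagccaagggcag
Sftpb: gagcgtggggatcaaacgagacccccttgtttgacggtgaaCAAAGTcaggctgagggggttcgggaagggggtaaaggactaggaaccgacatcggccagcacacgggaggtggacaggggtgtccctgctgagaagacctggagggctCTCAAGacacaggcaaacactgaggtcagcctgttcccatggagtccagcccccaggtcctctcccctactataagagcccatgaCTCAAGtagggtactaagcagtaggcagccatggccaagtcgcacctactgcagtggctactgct
Slc34a1 holds the GTTAAT letters at 2 places and the HNF4 letters at 1, Umod holds the GTTAAT letters at 1 place, Sftpb holds the NKX2-1 letters at 2 places and the HNF4 letters at 1, and Slc34a2 holds none of the 4. RefSeq windows were found for 780 of 1068 genes higher in kidney by a log2 difference of 3 or more, for 1072 of 1529 such lung genes and for 27025 genes in all. The GTTAAT letters were in 12.1% of the kidney promoters, 5.88% of the lung promoters, 4.99% of the promoters of all tested genes and 7.20% of all promoters. For the NKX2-1 letters the shares were 15.4%, 17.0%, 14.5% and 16.2%, for the HNF4 letters 17.1%, 15.02%, 12.8% and 14.3%, and for the forkhead letters 4.10%, 4.01%, 2.81% and 3.55%. Base composition moved with these groups: the median GC content was 55.0% in the kidney promoters, 54.7% in the lung promoters, 59.3% for tested genes and 52.7% for all promoters, and its part in the shares was not tested. Of the 4 motifs, the GTTAAT letters differed most in share between the kidney and the lung promoters; these are descriptions of letters in a window, with no test.

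All 11 factors of the kidney list were higher in kidney, against 13.4% of all genes tested, with a median log2 difference of 8.42. Hnf4a, a nuclear receptor of the proximal tubule and of liver, was at 154 and 201 RPKM in kidney and 0.316 and 0.265 RPKM in lung (log2 difference 9.31 ± 0.72, adjusted p = 0.000111). Pax8, required for nephron formation, was at 9.24 and 12.8 RPKM in kidney and 0.00840 and 0.00754 RPKM in lung. Further members were Emx1, Esrrg, Esrrb, Tfap2b, Lhx1, Pax2 and Hnf4g, with log2 differences from 4.41 (Esrrg) to 9.22 (Pax2).

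Of the 11 factors of the lung list, 9 were higher in lung, against 17.1% of all genes tested, and 2 were not called. The median log2 difference was -4.98. Nkx2-1, the lineage factor of lung epithelium, was at 37.4 and 37.7 RPKM in lung and 0 and 0.0359 RPKM in kidney (log2 difference -10.5 ± 0.64, adjusted p = 9.62e-05). Foxf1, a factor of lung mesenchyme and capillaries, was at 59.4 and 57.9 RPKM in lung and 0.110 and 0.113 RPKM in kidney. Tbx4, another mesenchymal factor, was at 10.4 and 10.5 RPKM in lung and 0.0260 and 0.00999 RPKM in kidney. Tbx2 was shared, at 18.6 and 18.5 RPKM in kidney and 25.9 and 23.1 RPKM in lung (log2 difference -0.36 ± 0.27, adjusted p = 0.533), and Sox17 was not called either (adjusted p = 0.273).

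Hox genes record position along the body axis, and those that were called were higher in kidney. Of the tested genes of paralogue groups 9 to 13, 8 of 9 were higher in kidney and 0 in lung. The member not called had a log2 difference of -5.07, with both lung libraries above both kidney libraries. Of groups 1 to 8, 6 of 15 were higher in kidney and 0 in lung. The share over all genes tested was 13.4% higher in kidney. Hoxb9 was at 19.8 and 19.9 RPKM in kidney and 0.0396 and 0.0426 RPKM in lung, and Hoxd9 at 27.2 and 30.4 against 0.286 and 0.270 RPKM. Hoxb5, of groups 1 to 8, was at 3.03 and 3.07 RPKM in kidney and 4.04 and 3.75 RPKM in lung and was not called (log2 difference -0.33 ± 0.46, adjusted p = 0.708).

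By the size of the fitted difference, among called genes with a mean of 10 RPKM or more in the higher organ, the kidney side was led by A1cf (an RNA-binding cofactor of apolipoprotein B editing), Casr (the calcium-sensing receptor), Mir196a-1, Pax8, Ush1c, Aqp6 (an intracellular water channel of intercalated cells), Kif12, Slc5a2, Erich4 and Slc12a1. A1cf (chr19:31868764-31948995) had 964 and 2692 reads in kidney and 0 and 4 in lung, and Casr (chr16:36493696-36562141) had 1228 and 6315 reads in kidney and 4 in each lung library. Their log2 differences were 10.6 ± 0.76 and 10.5 ± 0.86 (adjusted p = 8.99e-05 and 0.000135). Mir196a-1 is a hairpin of 102 bases in a Hox cluster (chr11:96265164-96265265), with 61 and 115 reads in kidney and 0 in lung, at least 107-fold higher against a floor of 3 reads over the lung libraries. The libraries are of polyadenylated RNA, so these reads are not a measure of the mature microRNA, and the transcript they came from was not tested. The lung side was led by Actc1, Tmem212, Fam183b, Sntn, Pifo, 1700024G13Rik, Bpifb1, Bpifa1, Sftpa1 and Npw. A total of 7 of these 10 had 0 reads in both kidney libraries, so their fitted differences depend on the prior count of the fit. Their place among the 10 depends on it too, and the order is not a ranking. Against a floor of 3 reads over the kidney libraries, Tmem212 was at least 743-fold, Fam183b at least 602-fold, Sntn at least 546-fold and Pifo at least 443-fold higher in lung. Sntn and Pifo are genes of the ciliary tip and base, and Bpifa1 and Bpifb1 encode secreted airway proteins, with Bpifa1 at 827 and 819 RPKM in lung and 0.172 and 0.220 RPKM in kidney. Of these 20 genes, Pax8, Ush1c, Slc5a2, Slc12a1, Actc1, Tmem212 and Pifo each overlap an annotated gene on the other strand, A1cf, Casr and Pifo overlap one on their own strand, and the strand setting of the read counting was not given in the sources used here.

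Metabolism separated the organs in 1 direction. All 7 gluconeogenesis genes, 12 of 13 amino acid metabolism genes, 9 of 16 fatty acid oxidation genes and 53 of 74 nuclear-encoded respiratory chain genes were higher in kidney. Over all genes 13.4% were, and 0 genes of these lists were higher in lung. Pck1, the rate-limiting enzyme of gluconeogenesis, was at 936 and 1191 RPKM in kidney and 60.2 and 58.3 RPKM in lung (log2 difference 4.17 ± 0.57, adjusted p = 0.0012). Acadm, the medium-chain acyl-CoA dehydrogenase, was at 424 and 344 RPKM in kidney and 53.6 and 53.7 RPKM in lung (log2 difference 2.83 ± 0.45, adjusted p = 0.00265), whereas its long-chain relative Acadl was at 156 and 181 against 128 and 131 RPKM and was not called (adjusted p = 0.597). In the respiratory chain the differences were smaller and uniform. All 74 genes had higher values in both kidney libraries than in both lung libraries, where 39.7% of all genes did, with log2 differences between 0.94 and 3.08 and a median of 1.53. The count of called respiratory chain genes depended on the setting: it was 4 without kidney control 2, 31 with all 16 libraries in the fit, 39 with DESeq2 and 41 under scaling by library size alone. Without kidney control 2 the fatty acid oxidation list had 4 called genes, and with all 16 libraries the gluconeogenesis list had 4.

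Kidney hormones and their receptors followed, with 6 of 7 higher in kidney, against 13.4% of all genes tested. Ren1, which encodes renin, was at 36.5 and 48.9 RPKM in kidney and 0.154 and 0.0552 RPKM in lung. Kl, the klotho coreceptor of FGF23, was at 79.5 and 112 RPKM in kidney and 0.191 and 0.225 RPKM in lung. Pth1r, the receptor of parathyroid hormone, was at 174 and 249 RPKM in kidney and 2.59 and 2.37 RPKM in lung. All 3 were higher in kidney (log2 differences 9.02 ± 0.76, 8.79 ± 0.90 and 6.44 ± 0.52, adjusted p = 0.000153, 0.000319 and 0.000135), and Calcr was the member not called.

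Of 10 renin-angiotensin genes, 5 were higher in kidney (among them Agt, Ren1, Mme and Agtr1a), 1 was higher in lung (Cma1, the chymase of mast cells) and 4 were not called, and without kidney control 2 the first count was 3. The shares over all genes tested were 13.4% higher in kidney and 17.1% higher in lung. Agt, the angiotensin precursor, was at 41.6 and 69.0 RPKM in kidney and 0.485 and 0.2998 RPKM in lung (log2 difference 7.30 ± 0.67, adjusted p = 0.000214). Ace, the enzyme that forms angiotensin II on lung capillaries and on the tubular brush border, was at 44.0 and 94.8 RPKM in kidney and 112 and 110 RPKM in lung. Both lung libraries were the higher, but the kidney libraries lay far apart and the gene was not called (log2 difference -0.68 ± 0.45, adjusted p = 0.384).

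The genes that carry platinum drugs across membranes are of interest because the same series follows cisplatin damage in these organs. Of 12, 7 were higher in kidney, 1 was higher in lung and 4 were not called. Over all genes tested 13.4% were higher in kidney and 17.1% were higher in lung. Slc22a2, the organic cation transporter OCT2 of the basolateral tubule membrane, was at 65.5 and 121 RPKM in kidney and 0.123 and 0.243 RPKM in lung (log2 difference 8.78 ± 0.62, adjusted p = 8.67e-05). Slc47a1, the luminal exporter MATE1, was at 121 and 119 RPKM in kidney and 0.421 and 0.481 RPKM in lung (log2 difference 8.01 ± 0.47, adjusted p = 6.83e-05). Both of these transporters of organic cations, for uptake and for export, were higher in kidney. The copper transporter Slc31a1 (CTR1) differed less, at 45.8 and 49.6 RPKM in kidney and 14.7 and 15.4 RPKM in lung (log2 difference 1.65 ± 0.33, adjusted p = 0.0107), and its relative Slc31a2 was at 12.2 and 9.74 against 12.1 and 11.2 RPKM (adjusted p = 0.934). The copper-exporting ATPase Atp7b was higher in lung, at 0.769 and 1.09 RPKM in kidney and 4.78 and 4.77 RPKM in lung (log2 difference -2.35 ± 0.32, adjusted p = 0.00151).

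Of 18 metallothionein and glutathione genes, 8 were higher in kidney, against 13.4% of all genes tested, and 0 were higher in lung. With each library counted as a replicate 13 were higher in kidney. Gpx1 was at 796 and 903 RPKM in kidney and 166 and 162 RPKM in lung, and Gsta2, a glutathione transferase, at 347 and 362 against 3.12 and 2.81 RPKM. Both were called (adjusted p = 0.00828 and 0.00289), and Gstm1 was not, at 204 and 417 RPKM in kidney and 207 and 204 RPKM in lung (adjusted p = 0.634). Gsta2 and Gstm1 have close relatives in the genome, so the split of reads between copies is uncertain.

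Nucleotide excision repair genes, which remove cisplatin adducts, were close between the untreated organs. Of 30, 1 was higher in kidney (Lig3), 1 was higher in lung (Lig1) and 28 were not called, against 30.5% called among all genes. The median log2 difference was 0.22. Ddb1, part of the damage-recognition ubiquitin ligase, was at 50.6 and 73.9 RPKM in kidney and 39.8 and 39.7 RPKM in lung (adjusted p = 0.379), and Rad23b was at 20.5 and 23.4 against 18.1 and 18.5 RPKM (adjusted p = 0.727). Lig1, the replicative DNA ligase, was at 1.51 and 2.01 RPKM in kidney and 4.58 and 4.98 RPKM in lung (log2 difference -1.47 ± 0.35, adjusted p = 0.0231). Lig3 lost its call under 10 of the 16 other settings, DESeq2 and each other scaling included, and Lig1 lost its call when either kidney library was left out. In the p53 pathway 1 of 12 was higher in kidney (Sesn2), 2 were higher in lung (Fas and Bbc3) and 9 were not called, a share of calls near the 30.5% among all genes. Cdkn1a, the p53 target p21, was at 3.62 and 7.91 RPKM in kidney and 29.7 and 28.4 RPKM in lung but was not called (log2 difference -2.32 ± 0.84, adjusted p = 0.0799). Of 13 circadian clock genes, 1 was higher in kidney (Hlf), 2 were higher in lung (Cry1 and Cry2) and 10 were not called, again near that share.

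**Figure D3:**
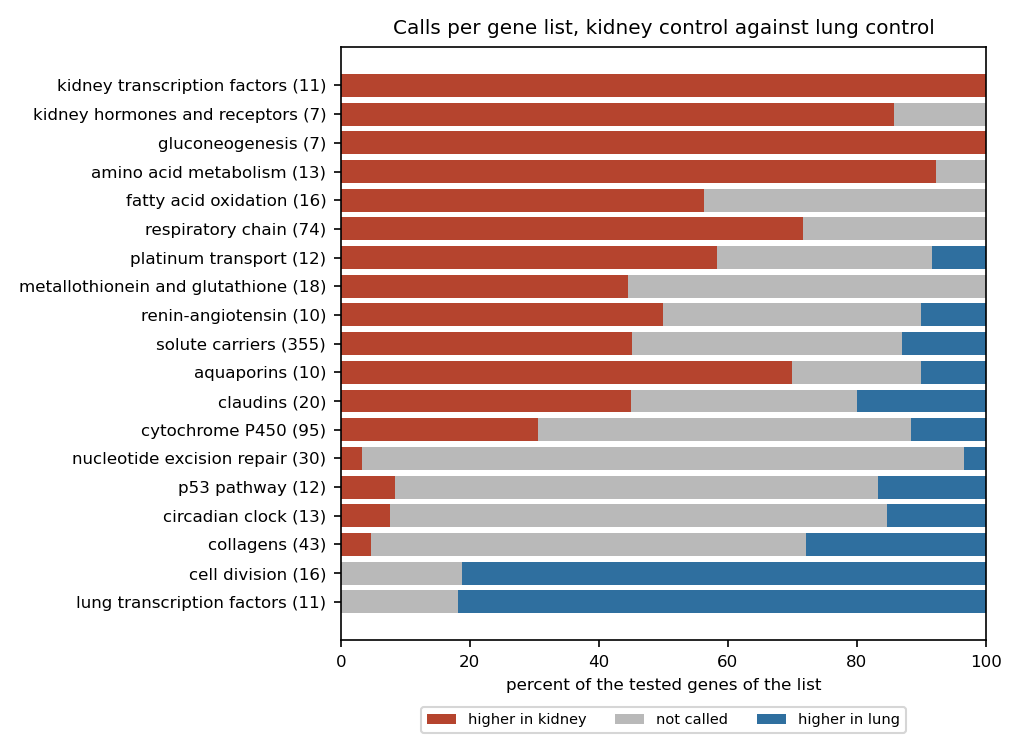
Percent of the tested genes of each list that were higher in kidney (red), not called (grey) or higher in lung (blue); the number of tested genes stands in brackets. All 11 kidney transcription factors and all 7 gluconeogenesis genes are red, 28 of the 30 nucleotide excision repair genes are grey, and 13 of the 16 cell division genes are blue.

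Most vascular, fibroblast and smooth muscle markers were higher in lung. Of 12 pan-endothelial markers 11 were higher in lung, against 17.1% of all genes tested, and Emcn was higher in kidney. Cldn5, the claudin of endothelium, was at 231 and 219 RPKM in lung and 9.06 and 10.9 RPKM in kidney (log2 difference -4.48 ± 0.31, adjusted p = 8.27e-05). Cdh5, the endothelial cadherin, was at 123 and 122 RPKM in lung and 6.53 and 11.4 RPKM in kidney. Emcn, an endothelial sialomucin, was at 6.18 and 6.28 RPKM in lung and 13.3 and 14.4 RPKM in kidney (log2 difference 1.14 ± 0.30, adjusted p = 0.0393). It lost its call under 9 of the 16 other settings, among them DESeq2, RLE and upper quartile scaling, scaling by library size alone and the fit without kidney control 2. Of the fibroblast and elastic fibre list 13 of 17 were higher in lung and 0 in kidney, and of the smooth muscle list 7 of 8. Mfap4, an elastic fibre protein, was at 172 and 167 RPKM in lung and 0.552 and 0.813 RPKM in kidney, while Npnt, a matrix protein of tubules and alveoli, was shared, at 72.1 and 92.1 RPKM in kidney and 76.2 and 78.2 RPKM in lung (adjusted p = 0.961). Of 43 collagens 12 were higher in lung, 2 were higher in kidney and 29 were not called, a share near the 30.5% called among all genes; counting each library as a replicate gave 21 and 7.

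Immune and blood genes were mostly higher in lung as well, where 17.1% of all genes tested were. All 16 T and NK cell markers, 10 of 11 B cell markers, 9 of 13 macrophage markers, 6 of 7 neutrophil markers, 6 of 7 MHC class II genes and all 6 erythroid genes were higher in lung, with 0 of them higher in kidney. Without kidney control 2, 3 MHC class II and 2 erythroid genes were called higher in lung. Lyz2, lysozyme of myeloid and type 2 cells, was at 2714 and 2757 RPKM in lung and 37.1 and 37.2 RPKM in kidney (log2 difference -6.21 ± 0.46, adjusted p = 0.000101). Chil3, a product of alveolar macrophages, was at 122 and 123 RPKM in lung and 0.271 and 0.375 RPKM in kidney. The macrophage markers not called were the complement genes C1qa, C1qb and C1qc and the receptor Csf1r, with C1qa at 23.1 and 28.3 RPKM in kidney and 39.1 and 37.0 RPKM in lung (adjusted p = 0.327). Ighm, the heavy chain of IgM, was the B cell member not called, at 32.4 and 164 RPKM in kidney and 799 and 807 RPKM in lung (adjusted p = 0.0575), with the kidney libraries far apart. Hba-a1, an alpha globin, was at 93.1 and 228 RPKM in kidney and 1306 and 1217 RPKM in lung (log2 difference -2.96 ± 0.75, adjusted p = 0.0215). Its copies are near-identical, so their split is uncertain.

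Cell division genes were higher in lung in 13 of 16, against 17.1% of all genes tested, and higher in kidney in 0. Mcm4, a subunit of the replicative helicase, was at 3.06 and 2.82 RPKM in kidney and 8.26 and 8.63 RPKM in lung (log2 difference -1.54 ± 0.30, adjusted p = 0.00942), and Mcm6 was at 6.50 and 7.46 against 7.61 and 8.51 RPKM and was not called (adjusted p = 0.697).

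Some markers of cardiac muscle, mesothelium, high endothelial venules, cartilage and fat were also read in the lung libraries. Over all genes tested 17.1% were higher in lung. All 9 cardiac muscle markers tested were higher in lung, summing to 78.4 and 80.1 RPKM in lung and 1.25 and 2.64 RPKM in kidney. Actc1, cardiac actin, had 1486 and 4012 reads in lung and 0 in kidney, at least 1005-fold higher against a floor of 3 reads over the kidney libraries. All 3 mesothelial markers were higher in lung as well, among them Msln, at 27.4 and 27.8 RPKM in lung and 0.289 and 0.643 RPKM in kidney. Glycam1, a ligand made by high endothelial venules of lymph nodes, was at 51.3 and 52.6 RPKM in lung and 0.0830 and 2.78 RPKM in kidney (log2 difference -5.11 ± 1.13, adjusted p = 0.0115). Chad, a cartilage matrix protein, was at 20.4 and 21.4 RPKM in lung and 0.0263 and 0.101 RPKM in kidney. It made up nearly all of the cartilage list, which summed to 20.8 and 21.7 RPKM in lung. Of the 5 cartilage markers tested, 2 were higher in lung and 3 were not called. Of 6 adipocyte markers only Ucp1, the uncoupling protein of brown fat, was called (5 were without kidney control 2), at 11.4 and 11.6 RPKM in kidney and 135 and 130 RPKM in lung (log2 difference -3.52 ± 0.28, adjusted p = 0.000225). With 1 of 6 called, the adipocyte list was near the 17.1% of all genes tested. Adipoq was not called, at 4.87 and 23.8 RPKM in kidney and 65.0 and 65.8 RPKM in lung (adjusted p = 0.0646). Whether these values came from the lung itself or from attached tissue was not tested.

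The level of kidney genes in the lung libraries was also read. In the 108 kidney genes with a mean of at least 50 RPKM and a log2 difference of at least 7, a set chosen after the values were seen, the lung level was a median of 2759 and 2588 ppm of the kidney level in lung control 1 and 2, and 788 and 134 ppm in the 2 cisplatin-treated lung libraries. The control values were used to choose the set, so a low level in the lung controls was fixed by the choice. The treated values were not used. The 10th and 90th percentiles over these genes were 1299 and 6315 ppm in lung control 1. In lung control 2 they were 1498 and 5620 ppm. In lung cisplatin 2, the deepest library, 28 of these genes had 0 reads, against 0 in lung control 2. The summed proximal tubule level was 55.1 and 54.8 RPKM in the lung controls, 9.28 and 1.62 RPKM in the spleen controls and 574 and 441 RPKM in the liver controls. The folds of these 108 genes are ratios to this level of the lung libraries, and the cause of the level was not tested.

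The treated libraries gave an independent reading of the organ difference, as no library is shared. Of 17896 genes tested there, 41.3% were called (18.8% higher in kidney and 22.5% higher in lung). Of the 2477 genes higher in kidney in the controls, 2447 were tested in the treated libraries, where 2141 (87.5%) were called in the same direction and 99.3% had the same sign. Of the 3153 genes higher in lung, 3145 were tested, and 2653 (84.4%) were called in the same direction and 98.3% had the same sign. A total of 10 genes were called in the opposite direction, 1 from kidney to lung (Klf15) and 9 from lung to kidney. All 18 proximal tubule markers, all 8 loop markers, all 11 kidney factors and all 9 club cell markers were called the same way again. The respiratory chain list went from 53 to 73 of 74 called higher in kidney. The erythroid genes went from 6 of 6 to 1 of 6 called higher in lung and the high endothelial venule markers from 3 of 4 to 1 of 4, with Hba-a1 at a log2 difference of -1.84 in the treated libraries (adjusted p = 0.141); whether these differences between treatments exceed the spread was not tested for the lists.

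**Figure D4:**
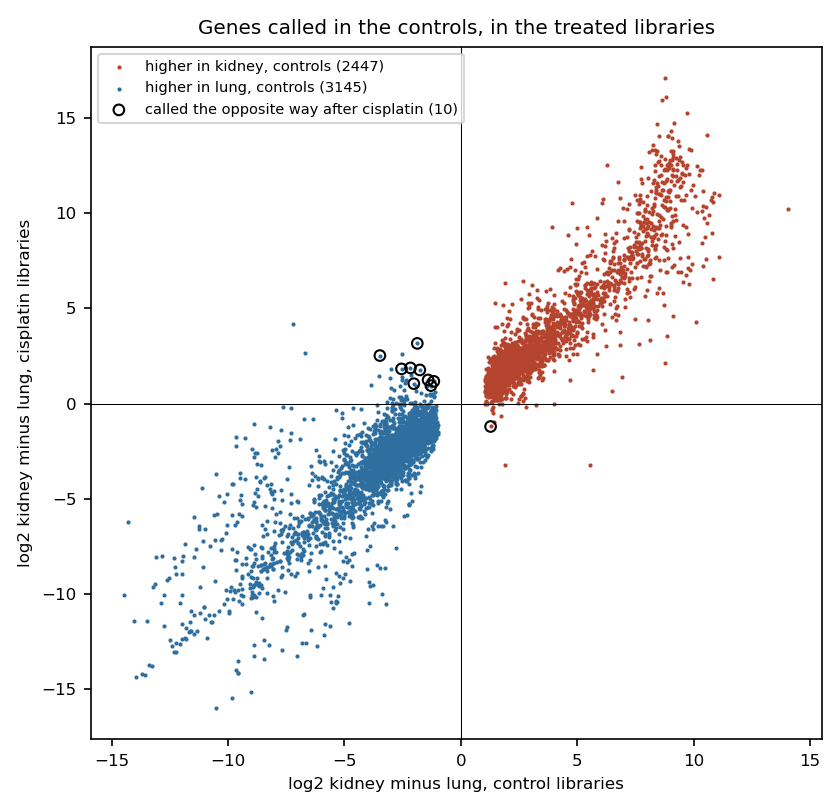
Log2 difference of kidney minus lung in the cisplatin libraries (vertical) against the control libraries (horizontal) for the genes called in the controls and tested in both, 2447 higher in kidney (red) and 3145 higher in lung (blue); circles mark the 10 genes called in opposite directions. Points lie mostly at the lower left and upper right; fitted values of genes with 0 reads in an organ depend on the prior count of the fit.

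The same genes were read in XR-seq, which sequences the oligonucleotides excised from DNA during repair, and in Damage-seq, which maps the adducts, 2 cisplatin-treated libraries per organ in each. These medians are given as a description, with no test. XR-seq reads on the transcribed strand (TS) followed the RNA of the untreated organs. The median log2 ratio of CPM + 1, kidney over lung, was between 0.63 and 0.67 over the 4 library pairs for the genes higher in kidney, between -0.54 and -0.45 for the genes higher in lung and between -0.03 and 0.08 for genes not called. In kidney genes of at least 10-fold difference it was between 1.87 and 2.01, with 93.8% of the 966 genes higher in kidney, and in lung genes of at least 10-fold it was between -0.53 and -0.32.

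On the nontranscribed strand (NTS) the ratio was between 0.86 and 0.97 for the kidney genes, between -0.09 and 0.11 for the lung genes and between 0.26 and 0.51 for genes not called. Relative to genes not called, the lung genes were thus lower on both strands. Damage-seq ratios differed less among the groups than the XR-seq ratios of the TS. On the TS the Damage-seq ratio was between 0.08 and 0.11 for kidney genes, 0.12 and 0.17 for lung genes and 0.16 and 0.25 for genes not called. On the NTS it was between 0.11 and 0.31, -0.03 and 0.07, and 0.06 and 0.21. In genes of at least 10-fold difference the TS ratio was between -0.09 and -0.005 for kidney genes and -0.01 and 0.02 for lung genes. Their NTS ratios were between -0.01 and 0.24 and between -0.06 and -0.04. Many genes had few reads in these assays, so ratios of CPM + 1 lie closer to 0 than the ratios of the reads.

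**Figure D5:**
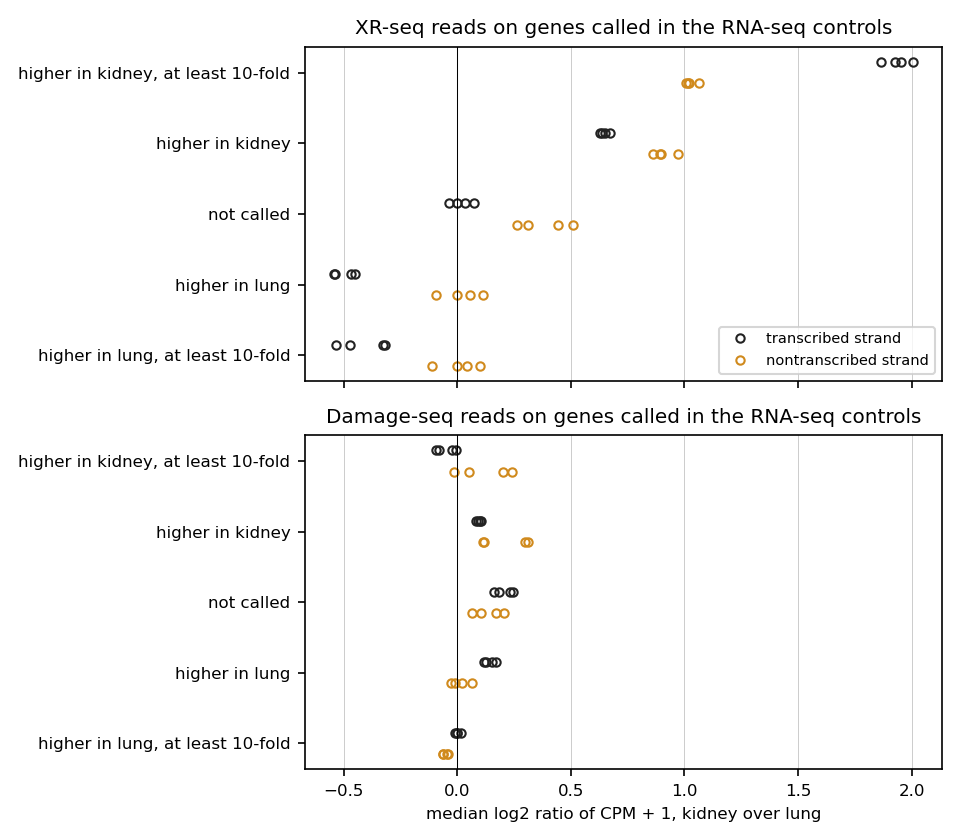
Median log2 ratio of CPM + 1, kidney over lung, in XR-seq (top) and Damage-seq (bottom) for groups of genes called in the RNA-seq controls; each circle is 1 of the 4 pairs of a kidney and a lung library, black for the transcribed and orange for the nontranscribed strand. XR-seq on the transcribed strand reaches 1.87 to 2.01 in kidney genes of at least 10-fold, while the Damage-seq circles lie between -0.09 and 0.31.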

How the data were processed

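The authors extracted RNA with TRIzol, selected poly-A RNA, made libraries with a kit that does not mark strand and sequenced them as paired ends. Per the labels and the study's methods, reads were aligned to mm10 with STAR, filtered by mapping quality and orientation and counted per gene with featureCounts, and the authors deposited raw counts. Damage-seq and XR-seq files were deposited as counts of reads per gene and strand. The versions, and the strand setting of the counting, are not given in the sources used here. The series notes that control and cisplatin labels of the lung and spleen RNA-seq had been exchanged and were corrected, and the present labels were used. A label field gives 2 h after injection, the protocol ZT1 to ZT5.

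The pair of a group was summed to 1 sample where the chi-square index of its counts, over genes with at least 20 reads, was 3 or below. The index was 83.7 for kidney, 349 for liver, 2.75 for lung and 2.98 for spleen, so lung and spleen were each 1 sample. The lone lung sample was assumed to vary like the kidney and liver pairs. The study describes its replicates as biological, but no label ties a library to an animal, so p-values measure the spread between these samples. Counts of the control libraries of 4 organs were fitted with edgeR 4.0.16 in R 4.3.3 (filterByExpr, TMM, glmQLFit, glmTreat at a log2 difference of 0.4, Benjamini-Hochberg over all genes tested). The fit was tested on simulated data. RPKM used exon lengths of GENCODE M21 (GRCm38, 25041 of 25059 genes), with the TMM factor of the summed lung sample for both of its libraries; DESeq2 1.42.0 was an alternative, and tables used Python 3.11.15. Depth was 19319092 to 77013005 reads on genes. Floors of 3 reads and intervals cover counting error only and take each read as independent. Of the nonzero counts, 57.7% and 56.9% were even in kidney control 1 and 2, and 56.7% and 53.5% in lung control 1 and 2. Whether the 2 reads of a pair were counted separately was not tested. If they were, the folds given as at least a value are too high, and so is the chi-square index.

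Named genes are the 10 with the largest difference per direction (10 RPKM or more in the higher organ, no overlap of libraries), the 3 most abundant members of each list, set pairs of paralogues and members that go against a list, and members of the platinum transport, renin-angiotensin and transcription factor lists could also be named; not every gene the rule allows is named. Others, such as Lig1, Fas, Hoxb9 and Emcn, were chosen after their values were seen. The members and lists were chosen with earlier results of these data known. Tnni3, Cyp11b2, Epo and Per3 were not analysed here. Some members of the lists are counted but not reported by name here.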

Additional observations from a re-analysis of the deposited data

Results flagged for a closer look

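Whether the difference between kidney and lung itself differed between control and cisplatin libraries was tested by an interaction of organ and treatment. The test used edgeR over all 16 RNA-seq libraries and was added after seeing the data. It called 23 of 19100 genes (Benjamini-Hochberg adjusted p under 0.05). Only the 10 genes called in opposite directions were looked up among them, and 6 of these 10 were called. RPKM here is scaled over all 16 libraries. The 6 were thus chosen for their opposite calls, and the rest of the 23 are not described here. All 6 were higher in lung in the controls and higher in kidney after cisplatin. Hbegf, a growth factor of the EGF family, was at 2.82 and 2.73 RPKM in kidney and 13.5 and 13.2 RPKM in lung in the controls, and at 52.8 and 62.6 RPKM in kidney and 15.8 and 15.97 RPKM in lung after cisplatin, so that its organ difference moved by 4.12 on the log2 scale (adjusted p = 0.000787). Dusp5, a phosphatase of ERK, moved by 4.45 (adjusted p = 0.000787), with kidney from 0.617 and 0.597 to 8.30 and 9.17 RPKM. Atf3, a stress-induced transcription factor, moved by 5.09 (adjusted p = 0.0173), with kidney from 0.789 and 1.44 to 75.0 and 92.0 RPKM and lung from 4.36 and 4.39 to 10.7 and 8.14 RPKM. Plk2 moved by 3.15, Junb by 2.41 and Pvr by 2.32 (adjusted p = 0.0150, 0.0353 and 0.0334). The other 4 genes called in opposite directions, Klf15, Ptp4a1, Ntrk3 and Mtfr2, had adjusted p from 0.0711 to 0.12 in this test.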

How the results depend on the processing

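Among 430 genes of the lists and leading genes tested, 0 reversed among those called under any of the 16 other settings tried for the controls. The organ comparison gave 5630 calls. Counting each library as a replicate gave 9139 calls (4402 higher in kidney, 4737 higher in lung), and the replicate block added to that fit gave 8880 (4286 and 4594). With kidney and lung libraries only, each as a replicate, there were 8606 (3740 and 4866). The replicate differences of kidney and of lung had a correlation of -0.02 over genes. The 2 lung libraries differed by little more than read sampling, so this value cannot show whether the replicate numbers pair the samples. Nothing says that they should. Using only kidney 2 and lung 1, whose file names share the letter B, gave 0 calls in either direction and 0 list genes, with 5838 genes at an unadjusted p under 0.05 against 0. Leaving out 1 library at a time gave 0 to 5611 calls (0 to 2483 higher in kidney, 0 to 3128 in lung, and 0 to 118 and 0 to 178 list genes, from 116 and 178), the 0 without kidney 1, when the spread rests on the liver pair. Without kidney 2 the spread rests on the liver pair too, and the cause of the 0 was not tested. DESeq2 gave 4642 calls and library size alone 1885 against 3846. In the cisplatin libraries, leaving out 1 library gave 4934 to 5308 calls (2020 to 2444 higher in kidney, 2807 to 2914 in lung) from 7391, and library size alone gave 35.0% of calls higher in kidney from 45.5%. With a pseudocount of 0.1 CPM the XR-seq medians became 0.74 for kidney genes and -0.79 for lung genes on the TS and 1.25 and, for genes not called, 0.52 on the NTS, and Damage-seq TS medians 0.12 for kidney genes and 0.27 for genes not called. With at least 20 reads the XR-seq medians were 0.66, -0.57 and 0.93. The depth limits genes near 0 reads.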
